A study of Mus musculus with 6 samples.

Results

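The 10 genes described here encode cytoplasmic partners and effectors of JAM-A, the junctional adhesion molecule encoded by F11r. They are Afdn (afadin), Rap1a, Rap1b, Rapgef1, Rapgef2, Rapgef6, Pard3, Pard6b, Prkci and Prkcz. They were chosen for their known place downstream of JAM-A, and each was followed by 1 probe set, the brightest of those that the platform annotation pairs with that gene alone. They are 10 of 19938 genes that could be followed in this way on arrays of 35557 probe sets. The arrays were run on mammary tumors from a mouse model, in which the MMTV promoter drives polyoma middle T (PyVmT) mainly in mammary epithelium. The first genotype, MMTV-PyVmT/JAM-A-/- (JamA- in the labels), is a cross with JAM-A null mice, in which cells of stroma and vessels lack JAM-A as well, and gave tumors 5333, 5346 and 5347. The other, MMTV-PyVmT/JAM-A+/+ (JamA+), littermates per the study's methods, gave tumors 5369, 5370 and 5393. All 6 tumors were resected early in tumor development, and the age of the mice is not given for single tumors.

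JAM-A is an immunoglobulin of tight junctions with a short cytoplasmic tail that ends in a PDZ-binding motif. Through that tail it can bind the PDZ domains of afadin and of Par3, and in human epithelial cell lines the exchange factor PDZ-GEF2, the product of Rapgef6, is found in the same complex. Exchange factors load Rap1 with GTP, and active Rap1 strengthens cadherin junctions and raises the activity of integrins. Par3, Par6 and atypical protein kinase C form the Par complex, which sets the border between the apical and the lateral membrane of epithelial cells. These proteins are controlled largely by where they are bound and by phosphorylation or GTP loading, none of which an expression array measures. The question put to the arrays is therefore a narrow one, whether the transcripts of these genes differed between tumors without and with JAM-A.

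The arrays are Affymetrix Mouse Gene 1.0 ST arrays, 1 per tumor, and the values are log2 expression values per probe set made with RMA. Differences are JAM-A-/- minus JAM-A+/+ on this log2 scale and were fitted with limma over all probe sets. A gene was said to meet the criteria if its change reached 1.3-fold, up or down, with an unadjusted p under 0.05. F11r checked the labels. JAM-A-/- tumors had 5.91, 5.55 and 6.53, JAM-A+/+ tumors had 10.1, 10.23 and 10.47, and the difference was -4.27 (adjusted p = 0.00667 from limma). No other probe set of the 35557 passed the adjustment, so that 0.00281% did, while 8.3% of them met the criteria. Markers of luminal epithelium were bright in every tumor, with Epcam at 11.62 to 12.07 in JAM-A-/- tumors and at 11.63 to 11.72 in the JAM-A+/+ ones. The tumors are bulk tissue, so fewer cells of a type and less RNA per cell cannot be told apart. The labels do not say whether tumors of 1 genotype came from separate mice, and the p-values measure only the spread between these tumors. Over all genes the differences leaned to one side, with a median of 0.09 and 71.8% of genes above 0.

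None of the 10 genes met the criteria, where 5.33% of all genes did. In limma none had an unadjusted p under 0.05, which 8.16% of all genes had, and the smallest adjusted p was 0.63, that of Afdn. The 2 genotypes overlapped for all 10 genes, while they did not overlap for 15% of all genes. The differences ran between -0.18 for Afdn and 0.15 for Prkcz, with a median of 0.02, and 7 of the 10 lay above 0. The 95% intervals of the 10 differences reached at the lowest to a fold of 0.712 (Afdn) and at the highest to a fold of 1.39 (Rapgef2). For Rap1a, Rapgef1, Rapgef6 and Pard3 the whole interval lay within a fold of 1.3 in either direction, which held for 26% of all genes. For these genes together this held in the deposited values but not under the other scalings. After quantile normalization over all or over the listed probe sets the lower limits of Rap1a, Rapgef6 and Pard3 passed that fold. The interval of Rapgef1 stayed within it there. After centring the upper limits of Rap1a and Rapgef1 passed it, while the intervals of Rapgef6 and Pard3 stayed within it. For the other 6 genes a change beyond 1.3-fold lay within the interval in the deposited values and after centring. There 3 tumors per genotype do not show that their levels were the same. This too depended on the scaling. After either quantile normalization the intervals of Rap1b, Pard6b, Prkci and Prkcz lay within that fold. The interval of Rapgef2 did so over the listed probe sets only, and that of Afdn under neither.

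**Figure D1:**
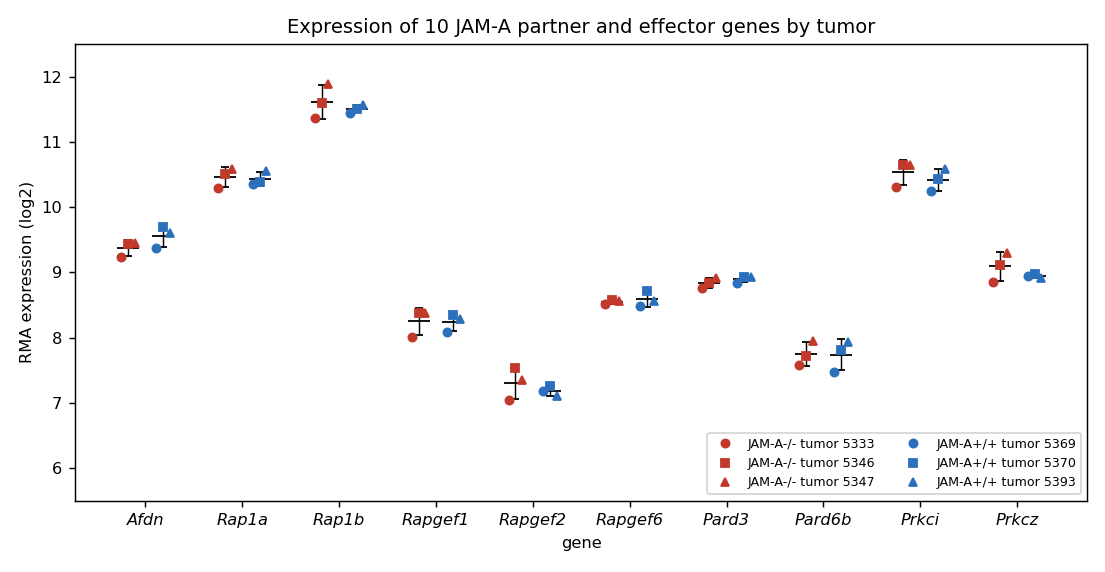
Expression, as log2 RMA values (vertical axis), of the 10 genes (horizontal axis) in 3 JAM-A-/- tumors (red, left of each pair) and 3 JAM-A+/+ tumors (blue, right). Each symbol is 1 tumor, ticks are group means and bars 1 SD; the genotypes overlap for every gene, and tumors 5333 and 5369 (circles) sit low in their groups for most of the genes.

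Afdn encodes afadin, the scaffold that ties nectins and JAM-A to actin filaments and binds active Rap1. JAM-A-/- tumors had log2 values of 9.24, 9.44 and 9.45, against 9.37, 9.7 and 9.6 for JAM-A+/+ tumors. Afadin was the lowest member in its difference, and the genotypes overlapped only through tumor 5369, whose value lay below those of tumors 5346 and 5347. The difference was -0.18 (standard error 0.13, 95% interval -0.49 to 0.13, adjusted p = 0.63 from limma). With single tumors left out it ran from -0.27 (without tumor 5369) to -0.11 (without tumor 5370). Of all genes, 5.45% had a difference as low or lower.

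Rap1a and Rap1b encode the 2 near-identical Rap1 GTPases that afadin and the exchange factors act with. Rap1a was at 10.29, 10.5 and 10.59 in JAM-A-/- and at 10.35, 10.38 and 10.56 in JAM-A+/+ tumors, a difference of 0.03 (95% interval -0.27 to 0.33). Rap1b was at 11.36, 11.59 and 11.89 in JAM-A-/- and at 11.45, 11.51 and 11.56 in JAM-A+/+ tumors, a difference of 0.11 (95% interval -0.25 to 0.46). For Rap1b the JAM-A-/- tumors were spread far more widely, at an SD of 0.27 against 0.06 in JAM-A+/+ tumors (n = 3 each), and they held both the lowest and the highest value. A further probe set is shared by Rap1a and the gene model Gm9392, and its signal cannot be assigned to either. It was at 9.71, 9.71 and 9.86 in JAM-A-/- and at 9.78, 9.9 and 9.88 in JAM-A+/+ tumors, with overlap.

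The exchange factors are Rapgef1, which is recruited by Crk adaptors, and the PDZ-domain factors Rapgef2 (PDZ-GEF1) and Rapgef6 (PDZ-GEF2). Rapgef1 was at 8.01, 8.37 and 8.37 in JAM-A-/- and at 8.08, 8.34 and 8.28 in JAM-A+/+ tumors, and its difference of 0.02 (95% interval -0.32 to 0.35) was among the smallest. A dimmer probe set of Rapgef1, at 6.79, 6.81 and 6.95 in JAM-A-/- and 6.85, 6.69 and 6.81 in JAM-A+/+ tumors, gave 0.07. Rapgef2 was at 7.04, 7.53 and 7.35 in JAM-A-/- and at 7.18, 7.26 and 7.1 in JAM-A+/+ tumors, a difference of 0.13 (95% interval -0.22 to 0.47). Tumors 5346 and 5347 stood above all JAM-A+/+ tumors and tumor 5333 below them, and the difference was 0.26 without tumor 5333 and 0.015 without tumor 5346. Rapgef6, whose product is the exchange factor found with JAM-A, was among the steadiest genes of the group, at 8.51, 8.58 and 8.56 in JAM-A-/- and 8.49, 8.71 and 8.56 in JAM-A+/+ tumors. Its difference was -0.04 (95% interval -0.30 to 0.23).

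Of the Par complex, Pard3 encodes the scaffold that binds the tail of JAM-A. It had the smallest range of the 10 genes over all 6 tumors, 0.17, at 8.76, 8.83 and 8.91 in JAM-A-/- and 8.84, 8.93 and 8.93 in JAM-A+/+ tumors. The difference was -0.07 (95% interval -0.32 to 0.19), and it ran from -0.11 without tumor 5347 to -0.03 without tumor 5333. Pard6b encodes the adaptor that joins active Cdc42 to the kinase. It was at 7.58, 7.72 and 7.95 in JAM-A-/- and at 7.48, 7.81 and 7.93 in JAM-A+/+ tumors, and at 0.01 (95% interval -0.36 to 0.38) its difference was the smallest in size. The kinase itself is encoded by Prkci and Prkcz, the iota and zeta isoforms of atypical protein kinase C. Prkci was at 10.31, 10.65 and 10.64 in JAM-A-/- and at 10.25, 10.43 and 10.58 in JAM-A+/+ tumors, a difference of 0.11 (95% interval -0.23 to 0.46). Tumors 5346 and 5347 lay just above the highest JAM-A+/+ tumor, and the difference was 0.23 without tumor 5333 and 0.028 without tumor 5369.

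Prkcz had the highest difference of the 10 in the deposited values, at 0.15 (standard error 0.14, 95% interval -0.17 to 0.47, adjusted p = 0.705 from limma). Its values were 8.86, 9.12 and 9.3 in JAM-A-/- and 8.94, 8.97 and 8.92 in JAM-A+/+ tumors. The JAM-A+/+ tumors were thus within 0.05 of each other, and the JAM-A-/- tumors lay on both sides of them. This was not kept after quantile normalization over the listed probe sets, with an SD of 0.062 in JAM-A-/- and 0.12 in JAM-A+/+ tumors. In the deposited values the difference was 0.27 without tumor 5333 and 0.047 without tumor 5347. Which gene this probe set reads is uncertain. Its number falls between those of Map3k10 and Zfp974 on chromosome 7, where the RefSeq gene order places the pseudogene Prkcz2, whereas Prkcz lies on chromosome 4, and the sequences of its probes were not tested. A second probe set paired with Prkcz is numbered between Ski and Gabrd, its neighbours on chromosome 4. With the second probe set in its place, or after either quantile normalization or with array weights, the highest difference was that of Rapgef2. Rapgef2 was also highest with the mean over the probe sets of a gene and without tumor 5347 or 5370, and Prkci without tumor 5393. The second probe set of Prkcz was at 7.75, 7.9 and 8.01 in JAM-A-/- and at 7.99, 7.64 and 7.8 in JAM-A+/+ tumors, a difference of 0.08 (95% interval -0.24 to 0.39). Neither probe set met the criteria, and in the second the highest JAM-A+/+ tumor was 5369, not 5370.

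**Figure D2:**
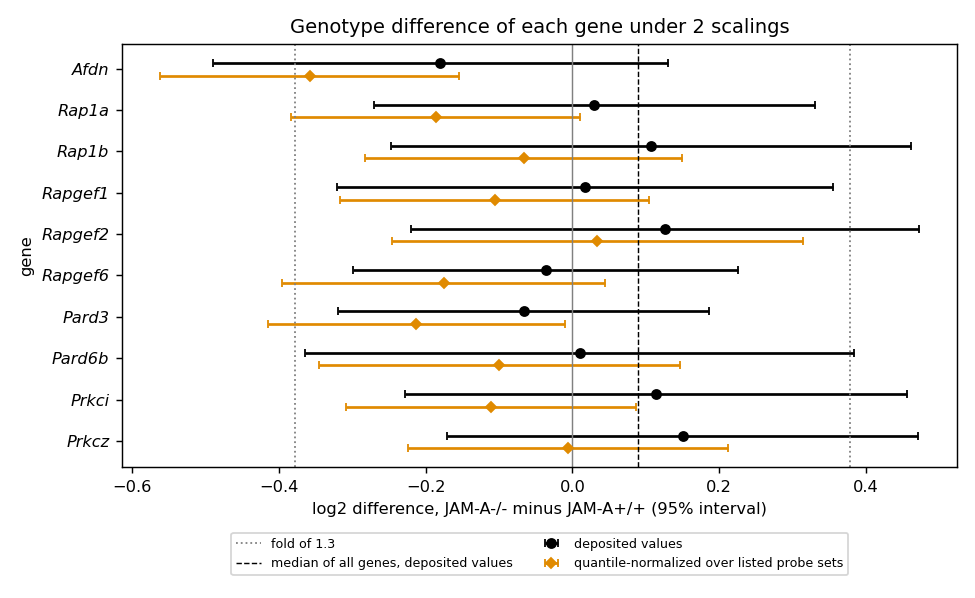
Log2 difference, JAM-A-/- minus JAM-A+/+ (horizontal axis), of each of the 10 genes (vertical axis) with its 95% interval from limma, in the deposited values (black circles) and after quantile normalization over the listed probe sets (orange diamonds); dotted lines mark a fold of 1.3 and the dashed line the median of all genes in the deposited values, 0.09. All 10 black intervals cross 0, and after quantile normalization those of Afdn and Pard3 lie below 0.

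The values of the 10 genes depended on how the arrays were scaled. In the deposited values the distance between the quartiles differed between arrays, at 3.41, 3.61 and 3.74 in JAM-A-/- and 3.27, 3.5 and 3.53 in JAM-A+/+ tumors. After quantile normalization over the probe sets that the annotation lists, the median of all genes was 0.0022 in place of 0.09, with 50.6% of all genes above 0. Of the 10 genes 9 then lay below 0, Rapgef2 being the exception at 0.03. Afdn was then at 9.32, 9.33 and 9.22 in JAM-A-/- and at 9.6, 9.75 and 9.6 in JAM-A+/+ tumors, without overlap, which 8.38% of all genes showed in this direction. Its difference was -0.36 (95% interval -0.56 to -0.15, unadjusted p = 0.00375 and adjusted p = 0.397 from limma), a fold of 0.78 that still missed the criteria. Pard3 was at 8.85, 8.75 and 8.69 in JAM-A-/- and at 9.04, 8.96 and 8.93 in JAM-A+/+ tumors under the same normalization, a difference of -0.21 (unadjusted p = 0.0417, adjusted p = 0.468 from limma). Rap1a also separated there, at -0.19 (adjusted p = 0.491 from limma). An unadjusted p under 0.05 with a lower level was found for 5.03% of all genes, and here for 2 of 10. With quantile normalization over all probe sets Afdn was at -0.35 (adjusted p = 0.325 from limma) and the median of the 10 genes at -0.09, while centring each array on its median gave -0.12 for Afdn and 0.08 for the median. Under none of these 3 scalings did any of the 10 meet the criteria, which 3.32% of all genes met with quantile normalization over listed and 3.73% over all probe sets and 8.46% with centring.

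In the deposited values, the members varied among tumors in a way that cut across genotype. All 10 were below their own mean over the 6 tumors in tumor 5333, a JAM-A-/- tumor, beside 57.2% of all genes. All 10 were so in tumor 5369, a JAM-A+/+ tumor, beside 68.6% of all genes. The lowest value of a gene fell in tumor 5333 for 7 of the 10 and in tumor 5369 for the other 3. Of all genes 20.1% had their lowest value in tumor 5333 and 36.7% in tumor 5369. The mean deviation of the 10 genes was -0.17, 0.07 and 0.14 for JAM-A-/- tumors 5333, 5346 and 5347, against -0.12, 0.04 and 0.04 for JAM-A+/+ tumors 5369, 5370 and 5393. For all genes these means were -0.03, 0.05 and 0.13 in JAM-A-/- and -0.11, -0.035 and -0.01 in JAM-A+/+ tumors. Tumor 5333 thus stood lower for these genes than for genes at large, while in tumor 5369 the means were close. The same 2 arrays had the smallest quartile distances of their genotypes. After quantile normalization over the listed probe sets 9 of the 10 were still below their own mean in tumor 5333, beside 50% of all genes. In tumor 5369 it was 1 of 10, beside 49.8% of all genes. The lowest value fell in tumor 5347 for 5 of the 10, beside 15.2% of all genes. The mean deviations of the 10 genes then split by genotype, at -0.084, -0.032 and -0.077 for JAM-A-/- tumors, against 0.084, 0.074 and 0.035 for JAM-A+/+ tumors, so that the pattern across genotypes was not kept under this scaling. Over all probe sets they were -0.085, -0.017 and -0.06 for JAM-A-/- tumors, against 0.061, 0.064 and 0.035 for JAM-A+/+ tumors. Markers of luminal epithelium had a mean deviation of -0.19, 0.18 and 0.29 in JAM-A-/- and -0.27, -0.01 and -0.01 in JAM-A+/+ tumors, and their part in the pattern was not tested.

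**Figure D3:**
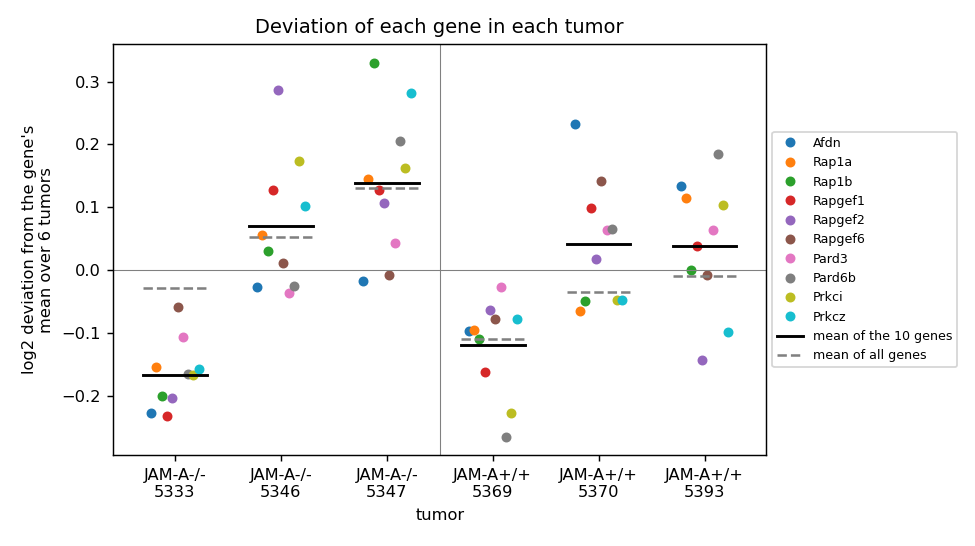
Log2 deviation of each of the 10 genes from its own mean over the 6 tumors (vertical axis) in 3 JAM-A-/- and 3 JAM-A+/+ tumors (horizontal axis), in the deposited values. Each point is 1 gene, black lines are the mean of the 10 genes and grey dashed lines that of all genes; all points lie below 0 in tumors 5333 and 5369.

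The spread of the 10 genes within a genotype was like that of other genes, with a median SD of 0.17 for both, and their median range over the 6 tumors was 0.42 against 0.47 for all genes. Within the pairs of related genes the change was compared directly, as the log2 difference between the 2 genes in each tumor, with a two-sided exact permutation test that cannot go below 0.1 in this design. Rap1a minus Rap1b changed by -0.08 (exact p = 0.6), Rapgef2 minus Rapgef6 by 0.16 (exact p = 0.4) and Prkci minus Prkcz by -0.04 (exact p = 0.9), JAM-A-/- minus JAM-A+/+, and adjusted over the 3 pairs all were at 0.9. No unequal change within a pair was detectable with 3 tumors per genotype. The genes whose 6 values ran closest to those of Afdn, out of 19937 others and each centred on its own mean, were Ankrd28, Als2cl and Etl4, at root mean square distances of 0.034, 0.040 and 0.043. Ankrd28 was at 8.97, 9.2 and 9.23 in JAM-A-/- and at 9.14, 9.4 and 9.29 in JAM-A+/+ tumors. It shared with Afdn the lowest value in tumor 5333 and the highest in tumor 5370.

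The wider pathway was followed through 58 genes in 6 lists, of which 55 were analysed here. Of these 55, 2 met the criteria, Rap2a and Nectin4, both higher without JAM-A. Over all genes 4.73% met them higher and 0.592% lower. The genotypes did not overlap for 3 of the 55 that were higher and 1 that was lower in JAM-A-/- tumors, beside 12.4% and 2.55% of all genes. In limma none of the 55 passed the adjustment over all probe sets, and 3 had an unadjusted p under 0.05, beside 8.16% of all genes. Their median difference was 0.11, beside 0.09 for all genes and 0.02 for the 10 genes above.

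Among genes listed here as acting on Rap1, none of the 9 measured activators met the criteria (median 0.07). The one with the smallest p was Rasgrp1, an exchange factor known from lymphocytes, whose action on Rap1 was not tested. Rasgrp1 was at 6.37, 5.94 and 6 in JAM-A-/- and at 5.73, 5.83 and 5.8 in JAM-A+/+ tumors, without overlap, a difference of 0.32 (adjusted p = 0.472 from limma). Crk and Crkl, the adaptors of Rapgef1, had differences of 0.15 and 0.11. None of the 6 inactivators, which return Rap1 to its GDP form, met the criteria (median 0.12). Rap1gap2, another such GTPase-activating protein, had the smallest p of these, at 8.11, 8.43 and 8.83 in JAM-A-/- and 7.88, 8.02 and 8.28 in JAM-A+/+ tumors, with overlap and a difference of 0.40 (adjusted p = 0.507 from limma).

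Of 10 Rap2 GTPases and Rap effectors, Rap2a met the criteria (list median 0.09). Rap2a is a relative of Rap1, and its values of 8.06, 8.58 and 8.42 in JAM-A-/- tumors stood against 7.58, 8.12 and 7.92 in JAM-A+/+ tumors. Tumor 5333 lay below tumor 5370, so that the genotypes overlapped. The difference was 0.48 (standard error 0.19, adjusted p = 0.434 from limma), and it no longer met the criteria without tumor 5369, at 0.33, or when quantile-normalized over listed probe sets, at 0.36. Its relatives Rap2b and Rap2c had differences of 0.20 and 0.27, and the effectors Krit1, Tln1 (talin, which activates integrins) and Rassf5 were at -0.03, 0.08 and 0.10.

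None of the 15 other polarity genes met the criteria (median 0.11). The one with the smallest p was Llgl1, a Lethal giant larvae homologue that opposes the Par complex, at 8.45, 8.59 and 8.61 in JAM-A-/- and 8.02, 8.35 and 8.31 in JAM-A+/+ tumors. The groups did not overlap, at a difference of 0.32 (unadjusted p = 0.0409, adjusted p = 0.442 from limma), below the fold of 1.3. Cdc42, the GTPase that binds Par6, was at 0.11, and Pard6a and Pard3b, relatives of the Par genes above, were at 0.02 and -0.16. Of 7 other partners of JAM-A none met the criteria (median 0.15). Cd9, a tetraspanin that links JAM-A to an integrin, had the smallest p, at 11.72, 11.96 and 12.44 in JAM-A-/- and 11.56, 11.74 and 11.9 in JAM-A+/+ tumors, a difference of 0.31 (adjusted p = 0.583 from limma). Tjp1, which encodes ZO-1, was at 0.05, and Itgb1, the integrin subunit whose activity Rap1 raises, at 0.20.

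Of 8 partners of afadin, Nectin4 met the criteria (list median 0.20, with 7 of 8 above 0). This nectin of epithelial cells binds the PDZ domain of afadin, and it was at 9.45, 9.92 and 10.22 in JAM-A-/- and at 9.06, 9.39 and 9.46 in JAM-A+/+ tumors. Tumors 5346 and 5347 were above every JAM-A+/+ tumor and tumor 5333 was just below tumor 5393. The difference was 0.56 (standard error 0.21, adjusted p = 0.423 from limma), and it ceased to meet the criteria without tumor 5347, at 0.38, or when quantile-normalized over listed probe sets, at 0.37. Nectin1, Nectin2 and Nectin3 had differences of -0.09, 0.15 and 0.17, and Ctnna1, the alpha-catenin that afadin can bind, was at 0.31.

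**Figure D4:**
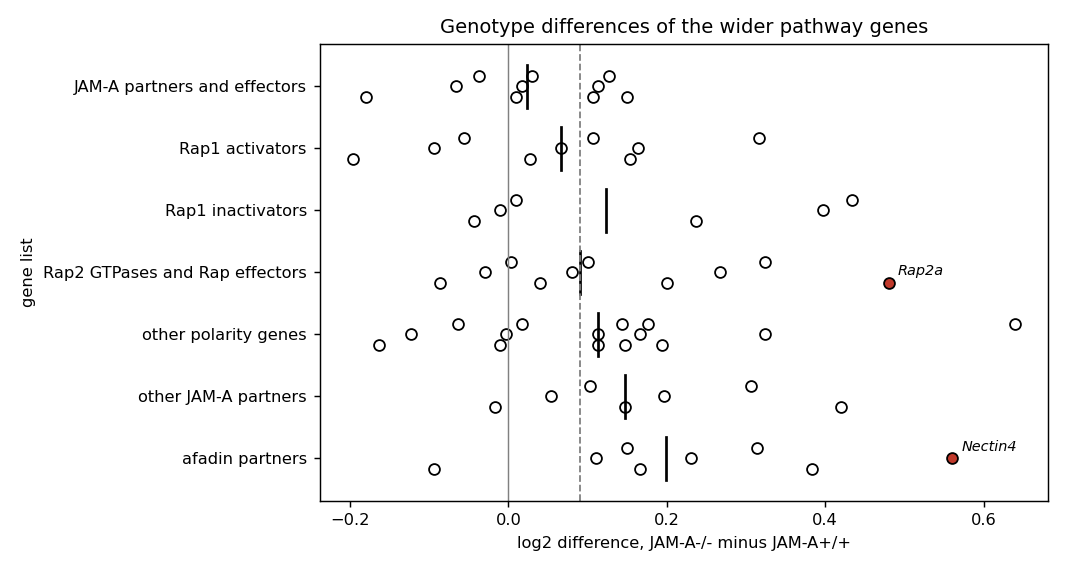
Log2 difference, JAM-A-/- minus JAM-A+/+ (horizontal axis), of the 10 JAM-A partner and effector genes and of the 55 measured genes of 6 wider lists (vertical axis), in the deposited values. Each circle is 1 gene, filled where it met the criteria (Rap2a and Nectin4), black ticks are list medians and the dashed line is the median of all genes, 0.09.

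Markers of other cells were followed beside these values, with 71.8% of all genes above 0 and 4.73% meeting the criteria as higher. In limma no marker passed the adjustment. All 6 endothelial markers were above 0 and 1 met the criteria (Pecam1, 0.60), and the log2 of their summed level was 9.68 to 10.14 in JAM-A-/- and 9.21 to 9.82 in JAM-A+/+ tumors. Of 6 fibroblast markers 5 were above 0 and 2 met the criteria (Pdgfra, 0.45, and Col1a2, 0.58), with a summed level of 13.23 to 13.64 in JAM-A-/- and 12.57 to 13.39 in JAM-A+/+ tumors. All 4 skeletal muscle markers were above 0 and 1 met the criteria (Acta1, 1.31), with a summed level of 10.14 to 11.24 in JAM-A-/- and 8.83 to 10.61 in JAM-A+/+ tumors. All 4 of these marker calls were lost without tumor 5346, 5347 or 5369 and in an equal-variance test, and those of Pecam1, Pdgfra and Acta1 also without tumor 5393. Pdgfra lost the call with array weights, Acta1 with an intensity trend, and Pdgfra and Col1a2 at a fold of 1.5. Without tumor 5369 Pdgfra was at 0.28 and Col1a2 at 0.33, and after either quantile normalization Pdgfra and Acta1 no longer met the criteria. Markers of luminal and basal epithelium, leukocytes and adipocytes included none that met the criteria, and 7 luminal markers summed to 14.1 to 14.65 in JAM-A-/- and 14.07 to 14.37 in JAM-A+/+ tumors. Above 0 were 6 of 7 luminal, 4 of 5 basal, 4 of 6 leukocyte and 3 of 4 adipocyte markers. The luminal marker Krt7 was at 0.34 (unadjusted p = 0.0175, adjusted p = 0.389 from limma), below the fold of 1.3. Its genotypes did not overlap, as for 12.4% of all genes in this direction. Elf5, also luminal, was at -0.24. Of all the markers measured, 1 of 4 adipocyte markers lay among the dimmest 40% of probe sets and none of the others did. The part of cell composition in the differences of Rap2a and Nectin4 was not tested.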

How the data were processed

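The authors deposited log2 expression values of 6 arrays, rounded to 2 decimals. The submitters' processing notes list RMA and Affymetrix Expression Console 1.1. RMA corrects the background, normalizes probes between arrays and summarises each probe set. The sources used here do not give its settings, and such values carry no total RNA amount. Tumors were grouped by their titles. The tissue label of tumor 5347 does not mention the missing JAM-A, but its title and genotype do. No batch, litter or scan date is given.

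All 35557 probe sets were fitted here with limma 3.58.1 in R 4.3.3 (default empirical Bayes, genotype as the only term, p-values adjusted by Benjamini-Hochberg across the array), steps that were tested on simulated data. The annotation pairs 21789 probe sets with 1 symbol, 1621 with several and does not list 12147, and 21698 were matched to RefSeq genes of GRCm38.p6, used for names and gene order only. The methods do not state how the arrays were tested. The fold of 1.3 and p of 0.05 are those that all entries of the published signature meet. They need not be the rule by which it was selected. Here 2952 of the 35557 probe sets met them, more than the signature lists. A few genes of the wider and marker lists are not reported here.

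The 10 genes and all lists were chosen with earlier results of these data known. Genes named are the 10 and F11r, up to 3 genes per wider list that met the criteria or else the 1 with the smallest p, and the 3 genes closest to Afdn. Other genes of these lists are named for their role, with their values. Epcam, Krt7, Elf5 and the markers that met the criteria stand beside the results. Other tests, scalings, filters and thresholds were tried and each tumor was left out in turn, and changes these made are given beside the results or at the end. An array gives no read count, and the number of arrays limits the precision.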

Additional observations from a re-analysis of the deposited data

How the results depend on the processing

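None of the 10 genes met the criteria under any of 17 alternatives, which were array weights, an intensity trend with a robust prior, an equal-variance test, 2 quantile normalizations, centring on array medians, leaving out the 40% dimmest probe sets, a fold of 1.5, no fold threshold, the mean over the probe sets of a gene, each tumor left out, and the other probe set of Prkcz, the last chosen after seeing the data. The trend, equal-variance test, dim filter and fold settings cannot move the 10 differences, and a fold of 1.5 cannot add calls. In all 17 Afdn was lowest and the median of the 10 was below that of all genes. Without tumor 5333 these medians were nearly the same, at 0.126 for the 10 and 0.128 for all genes. The median of the 10 was -0.11 when quantile-normalized over listed probe sets. It was -0.04 to 0.13 without 1 tumor, below 0 without tumor 5347 or 5369. Among all genes 944 met them higher and 118 lower in the deposited values, 359 and 303 when quantile-normalized over listed probe sets, 570 and 174 over all probe sets, 1620 and 66 with centring, 491 and 64 with the equal-variance test, 2018 and 142 without tumor 5333, 502 and 117 without tumor 5369, and 244 and 25 at a fold of 1.5.

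Values near 0 changed sign. With quantile normalization over all probe sets and over the listed ones, the differences were -0.18 and -0.19 for Rap1a, -0.076 and -0.066 for Rap1b, -0.079 and -0.11 for Rapgef1, -0.046 and -0.10 for Pard6b and -0.11 and -0.11 for Prkci. Prkcz was at -0.0056 over the listed ones. Centring gave 0.02 for Rapgef6 and array weights -0.051 for Pard6b. Without 1 tumor, Rap1a ran from -0.035 to 0.12, Rap1b from -0.032 to 0.23, Rapgef1 from -0.06 to 0.14, Rapgef6 from -0.085 to 0.025 and Pard6b from -0.12 to 0.11. The paired difference of Prkci minus Prkcz ran from -0.12 to 0.055 without 1 tumor and was 0.037 with the other probe set of Prkcz.

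Of the 55 wider pathway genes, 2 met the criteria in the deposited values (5.33% of all genes). The count was 4 with array weights (7.59%) and with centring (8.46%). It was 0 with the equal-variance test (2.78%), when quantile-normalized over listed probe sets (3.32%) and at a fold of 1.5 (1.35%). Without 1 tumor it ran from 0 (5347, 3.91%) to 9 (5333, 10.8%), at 1 without 5346 (4.54%) or 5369 (3.1%). The cause was not tested. Rap2a also lost the criteria without tumor 5346 (0.37), 5347 (0.45) or 5393 (0.50), and Nectin4 without tumor 5346 (0.53) or 5369 (0.44), and both with the equal-variance test and at a fold of 1.5. Nectin4 did so when quantile-normalized over all probe sets too (0.38). Rasgrp1 met the criteria without tumor 5346 (0.40) and when quantile-normalized over all probe sets (0.38), Llgl1 without tumor 5370 (0.39) and with centring (0.38), and Rap1gap2 (0.57) and Cd9 (0.47) without tumor 5333. F11r stayed at -4.54 to -4.05 without 1 tumor, with an adjusted p of 0.0507 without tumor 5333, 0.0839 without 5369, 0.0794 without 5370 and 0.0576 without 5393, and it was at -4.27 with an adjusted p of 0.453 in the equal-variance test. No paired analysis was possible because the tumor numbers of the 2 genotypes share none.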

Other observations

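In 2 genes of the wider pathway, picked after their values were seen, 1 JAM-A-/- tumor stood far above the other 5. Rap1gap, which inactivates Rap1, was at 10.05 in tumor 5347 but at 8.55 and 8.59 in the other JAM-A-/- tumors, against 8.6, 8.53 and 8.76 in the JAM-A+/+ tumors. Llgl2, an epithelial relative of Llgl1, was at 9.75 in tumor 5346 but at 8.44 and 8.6 in tumors 5333 and 5347, against 8.06, 8.53 and 8.28 in the JAM-A+/+ tumors. Neither met the criteria. The difference of Rap1gap was 0.43 (adjusted p = 0.686 from limma) and that of Llgl2 was 0.64 (adjusted p = 0.511 from limma).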
